A study of Mus musculus with 8 samples.

Results

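Small RNAs of whole testis were sequenced in 8 adult C57Bl/6 male mice, and the values below concern the X-linked miRNA genes between Slitrk2 and Fmr1 that include miR-465, miR-743 and miR-880. The members were chosen by name alone, as every entry of the miRNA class called miR-201, miR-463, miR-465, miR-470, miR-471, miR-547, miR-741, miR-742, miR-743, miR-871, miR-878, miR-880, miR-881 or miR-883, whatever its counts. The rule found 35 mature miRNAs, 17 from 5p arms and 18 from 3p arms, among 576 mature miRNAs and 20558 small RNAs of all kinds. Because 3 of the names stand for an identical sequence, the 35 entries hold 33 distinct sequences, and 34 entries passed the filter on low counts (at least 10 counts in enough mice for edgeR's default). miR-201-3p, with 80 counts over all mice, did not pass.

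The study asked whether a paternal western diet alters the small RNAs of the male germ line. The SD group was 4 mice titled as controls (M1N, M2N, TN1 and TN2), which the study fed a standard diet. The WD group was 4 mice titled as experimental (M1W, M2W, M3W and M5W), which were fed a western diet rich in lipids. The labels give its start as the age of 4 weeks, and the study's own text gives a younger age. All 8 were adult males of the same strain, and the labels set mating at 4 months. The growth description in the labels names the lipid-rich diet for the control animals too, so diets were taken from the titles. No source used here says what the letters M and TN stand for, or in which order animals or sequencing runs were handled.

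A miRNA gene is transcribed as a hairpin precursor, from which a mature miRNA of the 5p arm, of the 3p arm or of both is cut and loaded into an Argonaute protein. Bases 2 to 8 of the mature miRNA, the seed, pair with target messenger RNAs, so miRNAs with the same seed can share targets. The genes here form a rodent cluster related to the miR-506 family of primates, whose members are known mainly from the testis, and X-linked miRNAs of this kind have been studied because many are found in spermatocytes while most X-linked genes are silenced in meiosis. In whole testis, fewer cells of a type and less of a miRNA per cell cannot be told apart.

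The mature sequences behind the results are given first, from 5′ to 3′ as RefSeq lists them (GRCm38.p6), with the seed in capitals. The most abundant members come first, then those whose level or arm share did not overlap between the diets. For miR-878, miR-471, miR-871 and miR-547 both arms are shown.
miR-878-3p: gCAUGACAccacacuggguaga
miR-878-5p: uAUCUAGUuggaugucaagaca
miR-880-3p: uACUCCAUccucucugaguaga
miR-463-5p: uACCUAAUuuguuguccaucau
miR-741-3p: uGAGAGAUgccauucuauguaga
miR-471-5p: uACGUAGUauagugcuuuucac
miR-471-3p: uGAAAGGUgccauacuauguau
miR-742-5p: uACUCACAugguugcuaauca
miR-871-5p: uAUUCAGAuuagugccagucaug
miR-871-3p: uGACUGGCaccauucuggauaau
miR-547-5p: cACUUGAGgauguaccaccca
miR-547-3p: cUUGGUACaucuuugagugag

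The paralogs that share a seed are shown because reads cannot always be told apart between them.
miR-465a-3p: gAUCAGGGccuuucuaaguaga
miR-465b-3p: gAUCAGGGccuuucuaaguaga
miR-465c-3p: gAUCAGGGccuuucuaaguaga
miR-465a-5p: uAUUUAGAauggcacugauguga
miR-465b-5p: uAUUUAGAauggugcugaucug
miR-465c-5p: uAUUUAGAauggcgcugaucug
miR-743a-3p: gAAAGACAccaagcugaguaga
miR-743b-3p: gAAAGACAucaugcugaauaga
miR-883a-3p: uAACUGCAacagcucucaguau
miR-883b-3p: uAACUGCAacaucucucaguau

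The 35 members held 28 distinct seeds, and 5 seeds were held by more than 1 member. Counting positions from 1 at the 5′ end, miR-465b-5p differed from miR-465c-5p by U13C, and miR-883a-3p differed from miR-883b-3p by G12U. The 3p arms of miR-743a and miR-743b differed by C9U, A12U and G18A, all outside the seed. miR-465a-5p differed from miR-465c-5p by A14G and G20C and by its length. Since the alignment allowed 2 mismatches, the values of these 5p arms and of miR-883a-3p and miR-883b-3p are uncertain. miR-871-5p and miR-743a-5p, from different hairpins, held the same seed.

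The members resembled each other in features that the rule did not use. Of the 17 5p members, 12 began with UA, against 12.7% of 181 other 5p miRNAs of the table. Of the 16 distinct 3p sequences, 7 ended with UAGA, against 0 of 202 other 3p miRNAs. These letters were looked for after the sequences had been seen.

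On the mouse genome NCBIM37 (mm9), 20 precursors of the members are annotated on chromosome X, all on the minus strand and none overlapping another annotated gene. A main block of 18 precursors spans 62.4 kb, chrX:64029932-64092300, and starts 115 kb after the end of Slitrk2. Mir201 and Mir547 lie 1149 kb further on, 212 bases apart, and 690 kb before Fmr1. The 5 precursors of miR-465 lie at the far end of the main block, and all of them contain the miR-465-3p sequence. The hairpins of miR-878 and miR-871 are printed because their arms moved apart between mice (minus strand, mature arms in capitals, the 5p arm first).
Mir878, chrX:64054683-64054760: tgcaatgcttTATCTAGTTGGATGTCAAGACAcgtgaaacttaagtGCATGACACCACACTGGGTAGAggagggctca
Mir871, chrX:64063603-64063679: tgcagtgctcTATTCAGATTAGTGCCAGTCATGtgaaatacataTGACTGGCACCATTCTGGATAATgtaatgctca

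The deposited counts of all small RNAs summed to 2064562 to 3253798 per mouse, of which 188333 to 345909 were mature miRNAs. Between mice of a diet, mature miRNA counts differed by more than sampling noise in all 12 pairs, least between TN1 and TN2 (chi-square per degree of freedom 5.51). Such a spread cannot tell separate animals from separate libraries, and each mouse was counted as 1 replicate from its title. miR-122-5p, known from liver, was read at 15.4 and 13.0 CPM (counts per 1000000 counts of the TMM-scaled library) in TN1 and TN2 and at 0 in the other 6 mice, where 3 counts would be 0.933 to 1.38 CPM. As a check of the tissue, miR-34c-5p, a miRNA of meiotic and later germ cells, was read at 7814.5 ± 720.0 CPM in SD mice (SD, n = 4) and 8252.5 ± 1690.2 CPM in WD mice (n = 4). Only 1 tissue was sequenced, so the restriction of the cluster to testis or to a germ cell stage was not tested.

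In the order of their levels, 2 members stood above the rest. miR-878-3p and miR-880-3p ranked 14 and 16 of the 576 mature miRNAs by mean CPM over the 8 mice, at 1973.5 and 1809.2 CPM, and together made up 34.7% to 51.6% of the counts of all members in a mouse. miR-463-5p followed at 817.0 CPM, then miR-741-3p at 633.0, miR-743a-3p at 397.0 and miR-883a-3p at 342.0 CPM. At the other end, miR-547-5p and miR-201-3p were read at 3.72 and 3.47 CPM. Neighbours in this order did not always differ beyond their spread. miR-880-3p was the higher of the leading pair in TN1, TN2, M1W and M5W, and miR-878-3p in the other 4 mice. Mature miRNAs are read over their whole length, and all members were 21 to 23 bases long, so these levels are comparable per length. Whether different sequences are read equally well was not tested.

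Along the block, the highest levels came from neighbouring precursors. The starts of Mir741, Mir463, Mir880 and Mir878 lie within the stretch from 20.05 to 24.75 kb after that of Mir743, and they gave the 4 highest members when the 3 names of miR-465-3p are taken apart. Mir881, the next gene at 25.19 kb, gave 165.0 CPM from its 3p arm and 50.0 CPM from its 5p arm.

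**Figure D1:**
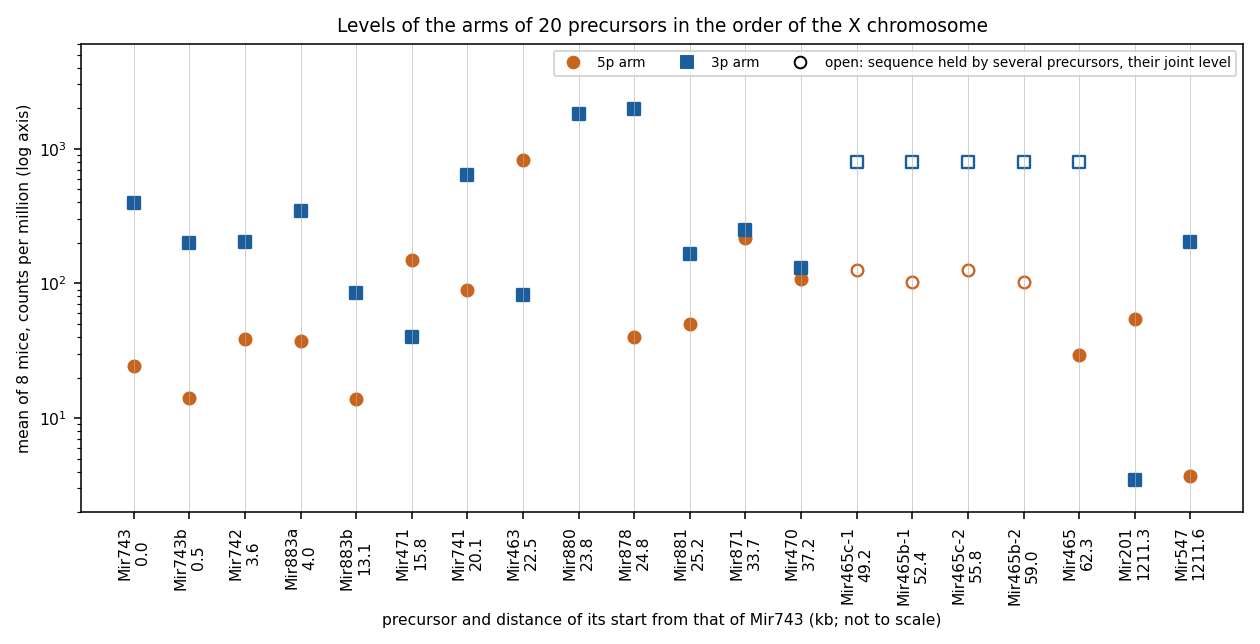
Mean level over 8 mice of each 5p arm (circles) and 3p arm (squares), in CPM on a log axis, for the 20 precursors in their order on chromosome X, with the distance from Mir743 in kb under each name. The highest points are the 3p arms of Mir880 and Mir878 at 1809.2 and 1973.5 CPM, and the open squares of the 5 miR-465 precursors are a single shared level.

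The 3p arms carried most of the counts, 76.2% to 83.3% of all members in a mouse. For 15 hairpins both arms were listed (the miR-465 copies taken as 1, because of their shared 3p arm), and the 3p arm was the larger in all 8 mice for 10 of them. The 5p arm was the larger in all 8 mice for miR-201, miR-463 and miR-471. In miR-871 and miR-470 the larger arm changed between mice, with 5p shares of 27.3% to 56.7% and 38.2% to 50.6%. The 5p arm of miR-880 had no entry and is not analysed here.

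Between the diets, no member passed the test after adjustment. In edgeR's quasi-likelihood test over 16955 small RNAs, 0 of 34 tested members had an adjusted p under 0.05, against 0% of all small RNAs tested, and the smallest adjusted p of a member was 0.318. An unadjusted p of at most 0.05 was found for 9 of the 34 members, against 14.8% of 366 mature miRNAs tested, and DESeq2 and limma-voom also called 0 after adjustment. The median log2 fold change (WD minus SD) was 0.19 over the 34 members, 0.03 over the 418 entries of the miRNA class and -0.01 over all small RNAs tested. Of the 17 5p members tested, 14 had a fold change above 0, and of the 17 3p members, 9. Over all mature miRNAs tested these counts were 107 of 178 for 5p arms and 88 of 181 for 3p arms.

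The study's limits for miRNAs, a p of at most 0.1 and a change of 1.5-fold, were applied here to the unadjusted p, and 4 members met these criteria. miR-471-5p, miR-878-5p and miR-465a-5p were higher in WD mice, 3 of 34 members against 7.89% of the miRNA class tested. miR-547-5p was lower, 1 of 34 members against 7.18% of the class. Both shares were near or under the background. The number meeting the criteria was 2 without M1N, 9 without TN1, 7 without TN2 and 9 without M2W. The share of the miRNA class meeting them in these fits is not given here.

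miR-471-5p was read at 56.2, 94.1, 143.0 and 144.0 CPM in M1N, M2N, TN1 and TN2, and at 184.0, 178.0, 208.0 and 189.0 CPM in M1W, M2W, M3W and M5W. All WD mice lay above all SD mice, and M1N and M2N were the lowest of the 8. The log2 fold change was 0.80 ± 0.24 (SE), with an unadjusted p of 0.00426 and an adjusted p of 0.318. Without M1N it was 0.58, under the 1.5-fold limit. Its other arm, miR-471-3p, ran from 32.4 to 36.2 CPM in SD mice and from 32.7 to 57.9 CPM in WD mice, which overlapped (log2 fold change 0.47 ± 0.19, adjusted p = 0.323).

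miR-878-5p, the minor arm of the most abundant hairpin, was read at 17.1, 24.2, 32.4 and 45.4 CPM in M1N, M2N, TN1 and TN2, and at 50.6, 57.4, 49.3 and 45.4 CPM in M1W, M2W, M3W and M5W. TN2 and M5W were within rounding of each other, and M1N and M2N were again the lowest. The log2 fold change was 0.78 ± 0.24 (adjusted p = 0.318). The major arm, miR-878-3p, was read at 3330.5, 2516.4, 1614.4 and 1433.5 CPM in the SD mice in the same order, and at 1261.6, 2518.0, 1756.5 and 1357.2 CPM in the WD mice. Here M1N was the highest of all, M2N lay close to M2W, and the diets overlapped (log2 fold change -0.37 ± 0.27, adjusted p = 0.506).

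miR-465a-5p was read at 14.4, 12.4, 33.4 and 33.8 CPM in the SD mice and at 50.0, 35.5, 17.0 and 37.6 CPM in the WD mice. M3W fell among the SD mice, and the criteria were met by a narrow margin (log2 fold change 0.60 ± 0.34, unadjusted p = 0.0987, adjusted p = 0.403). They were no longer met under 10 alternatives, namely DESeq2, scaling to library totals or to mature miRNAs, a minimum of 10 counts in every mouse, TN1 and TN2 as the only SD mice, and leaving out M1N, M2N, M1W, M2W or M5W. Its log2 fold change then ran from 0.08 against the TN pair to 0.64 with library totals. With the seed mates miR-465b-5p and miR-465c-5p the diets overlapped as well, at log2 fold changes of -0.07 ± 0.26 and 0.15 ± 0.22. M3W was the lowest WD mouse for each of the 3 names, at 43.3 CPM for miR-465b-5p and 94.9 CPM for miR-465c-5p.

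miR-547-5p, the minor arm of its hairpin, was read at 5.48, 7.65, 4.10 and 3.71 CPM in the SD mice and at 1.31, 1.32, 3.69 and 2.49 CPM in the WD mice. Every WD mouse lay below every SD mouse, but TN2 and M3W were nearly equal, and it had 84 counts over the 8 mice. These were 16, 24, 13 and 8 counts in the SD mice and 4, 3, 8 and 8 in the WD mice. M2W thus stood at the limit of 3 counts used here. The log2 fold change was -1.28 ± 0.40 (adjusted p = 0.318). The major arm, miR-547-3p, was read at 334.0, 284.0, 162.0 and 171.0 CPM in SD mice and at 150.0, 226.0, 170.0 and 137.0 CPM in WD mice, with M1N and M2N the highest of the 8 (log2 fold change -0.48 ± 0.24, adjusted p = 0.353).

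miR-742-5p was read at 23.3, 28.4, 35.9 and 38.9 CPM in SD mice and at 47.0, 42.1, 50.2 and 44.8 CPM in WD mice. The diets did not overlap, though the change of 0.55 ± 0.19 on the log2 scale was under the 1.5-fold limit (adjusted p = 0.318). In all, the values of 3 members lay wholly higher in WD mice (miR-471-5p, miR-878-5p and miR-742-5p), 8.82% of the 34 against 5.5% of the miRNA class, and 1 lay wholly lower (miR-547-5p), against 2.87%. With library totals and no TMM factor, miR-878-5p no longer lay wholly higher. When counts were scaled to mature miRNAs alone, 0 members lay wholly higher and 1 wholly lower. On that scale miR-471-5p spanned 476.0 to 1600.0 in SD mice and 1361.6 to 2165.7 in WD mice per the same number of mature miRNA counts, with a log2 fold change of 0.73.

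**Figure D2:**
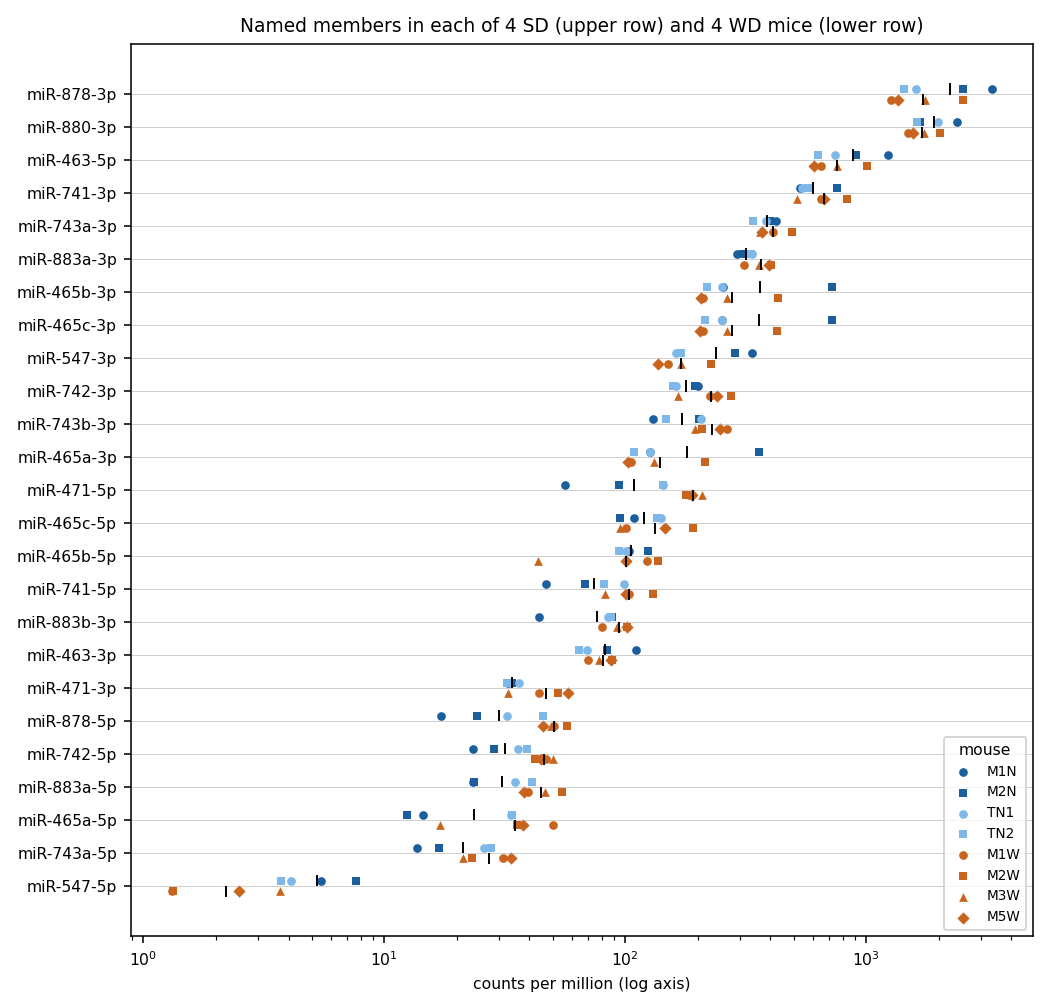
CPM on a log axis of 25 members in each mouse, with SD mice in blue in the upper row of each miRNA (M1N and M2N dark, TN1 and TN2 light), WD mice in orange in the lower row, and black bars at the group means. For miR-471-5p, miR-878-5p and miR-742-5p the orange points lie to the right of all blue ones, and the dark blue points of M1N and M2N lie furthest left.

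Of the 8 most abundant members, none met the criteria. miR-880-3p was 1916.9 ± 353.0 CPM in SD mice and 1701.6 ± 238.0 CPM in WD mice (SD, n = 4 each). miR-463-5p was 877.0 ± 264.0 and 756.0 ± 182.0 CPM, with M1N the highest of the 8 at 1233.1 CPM. miR-741-3p was 599.0 ± 104.0 and 667.0 ± 132.0 CPM, and its log2 fold change was 0.15 ± 0.18. miR-743a-3p was 386.0 ± 34.6 and 409.0 ± 60.0 CPM, and miR-883a-3p 316.0 ± 21.0 and 367.0 ± 41.9 CPM, with log2 fold changes of 0.08 ± 0.16 and 0.22 ± 0.15 and adjusted p-values of 0.816 and 0.487.

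The remaining other arms and seed mates overlapped between the diets. miR-742-3p was 179.0 ± 22.1 CPM in SD mice and 226.0 ± 45.4 CPM in WD mice, and miR-743b-3p, the seed mate of miR-743a-3p, 172.0 ± 38.6 and 228.0 ± 32.1 CPM. Their log2 fold changes were 0.34 ± 0.18 and 0.41 ± 0.18. miR-883b-3p was 76.0 ± 21.5 and 94.1 ± 10.6 CPM, and miR-463-3p 82.2 ± 20.9 and 80.6 ± 8.72 CPM. The minor 5p arms miR-741-5p, miR-883a-5p and miR-743a-5p were 73.8 ± 22.0, 30.7 ± 8.65 and 21.1 ± 6.82 CPM in SD mice, and 104.0 ± 19.7, 44.6 ± 7.53 and 27.3 ± 6.02 CPM in WD mice.

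For some members M1N and M2N stood apart from the other SD mice and from the WD mice. In M1N and M2N, 9 of the 34 tested members lay below all other 6 mice, WD mice included, against 14.8% of 366 mature miRNAs tested, and 3 lay above them, against 15.8%. The 9 low ones were 8 5p arms (miR-471-5p, miR-741-5p, miR-878-5p, miR-742-5p, miR-883a-5p, miR-465a-5p, miR-743a-5p and miR-883b-5p) and miR-883a-3p. The 3 high ones were miR-871-3p, miR-547-3p and miR-547-5p. How many of the low miRNAs outside the cluster were 5p arms is not given here. miR-465a-5p stood furthest apart among the low ones, with a mean of 13.4 CPM for M1N and M2N against 33.6 CPM for the TN pair.

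The comparison of diets depended on which SD mice it used. All 4 WD mice share the letter M with M1N and M2N, and TN occurs in SD titles alone, so the comparison within the letter M is the first given here. Against M1N and M2N alone, 7 of 35 members were higher in WD mice at an adjusted p under 0.05, against 8.83% of the miRNA class, and 4 were lower, against 9.71%. Those higher were all 5p arms, led by miR-465a-5p at a log2 fold change of 1.40 ± 0.32 (adjusted p = 0.00488), miR-471-5p at 1.34 ± 0.21 (0.000895) and miR-878-5p at 1.29 ± 0.23 (0.00134). The others were miR-883a-5p at 0.92, miR-741-5p at 0.86, miR-743a-5p at 0.85 and miR-742-5p at 0.83. Those lower were miR-547-5p at -1.59, miR-547-3p at -0.86, miR-871-3p at -0.77 and miR-878-3p at -0.76. How many of the other miRNAs called were 5p arms is not given. In this comparison the median log2 fold change was 0.51 for 5p and -0.13 for 3p members. Over all mature miRNAs it was -0.02 for 5p and -0.17 for 3p arms.

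Against TN1 and TN2 alone, 0 members were higher, against 0% of the miRNA class, and 0 were lower, against 4.07%. By edgeR, the single tool run on this pair, 3 of 35 members had an unadjusted p of at most 0.05, against 14.4% of 383 mature miRNAs. These were miR-742-3p, miR-471-3p and miR-471-5p, with log2 fold changes of 0.50 ± 0.18, 0.45 ± 0.21 and 0.40 ± 0.15. Of the others, miR-878-5p had 0.39 ± 0.19, miR-465a-5p 0.08 ± 0.27, and miR-878-3p 0.18 ± 0.21, the opposite sign to that against M1N and M2N. The same WD mice entered both comparisons, and each had 2 SD mice. The median over all mature miRNAs was -0.11 against M1N and M2N and 0.21 against TN1 and TN2, and that over the members was 0.24 and 0.18.

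**Figure D3:**
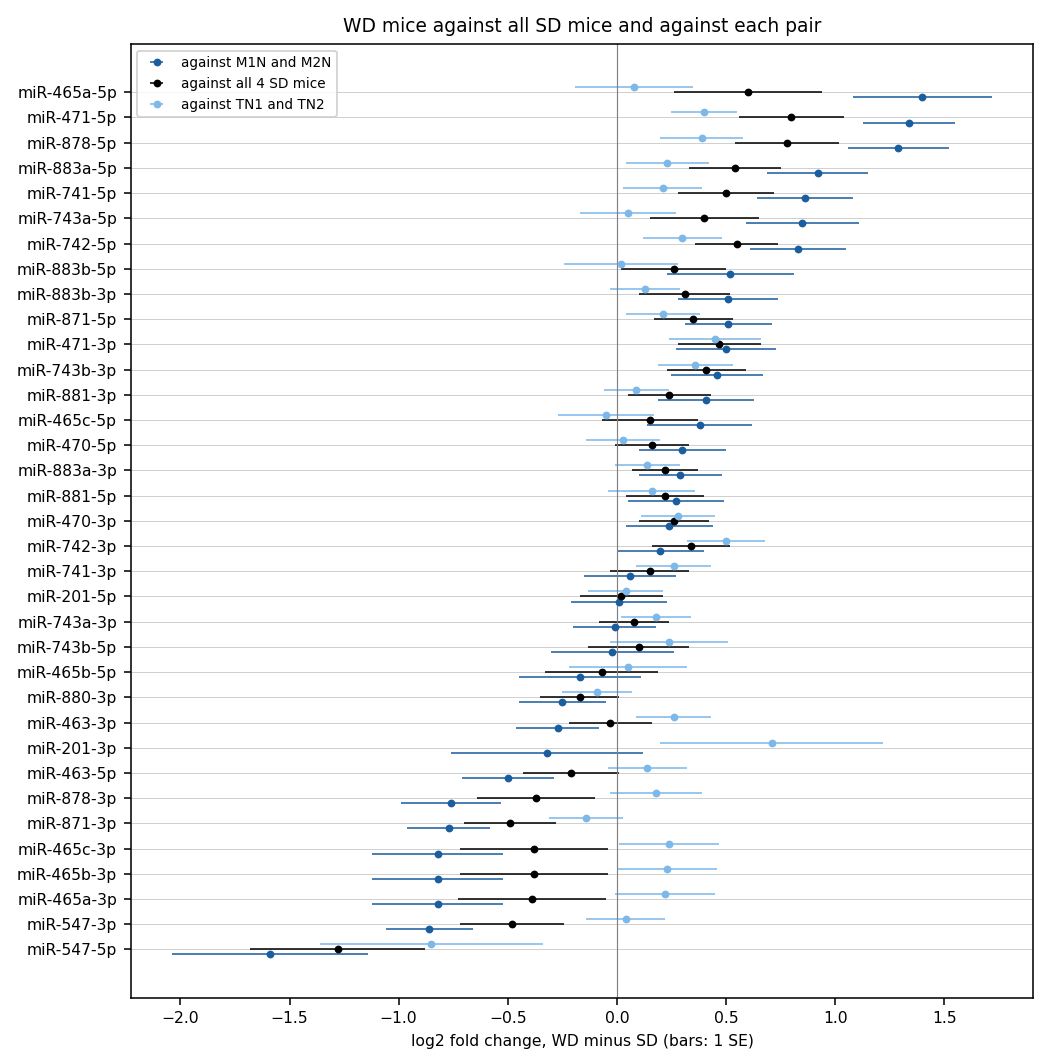
Log2 fold change of WD minus SD mice (points, bars of 1 SE) for each member, against M1N and M2N (dark blue), all 4 SD mice (black, 34 members) and TN1 and TN2 (light blue). The dark points run from -1.59 for miR-547-5p to 1.40 for miR-465a-5p, and the light points from -0.85 to 0.71.

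Marker miRNAs of other cells also differed between these mice. The 5 listed leukocyte miRNAs summed to 221.0 to 510.0 CPM in SD mice and 203.0 to 443.0 CPM in WD mice, with means of 456.0 CPM for M1N with M2N, 231.0 CPM for TN1 with TN2 and 285.0 CPM for the WD mice. The 2 endothelial ones summed to 1322.8 to 2099.1 and 1247.8 to 2437.8 CPM, with means of 2078.5, 1367.3 and 1689.7 CPM. The list of meiotic and later germ cells had means of 16953.2, 15007.5 and 15252.9 CPM in the same order. The erythrocyte list went the other way, with means of 55.9 CPM for M1N with M2N, 133.0 CPM for TN1 with TN2 and a range of 76.5 to 138.0 CPM in the WD mice. The remaining lists, in the order M1N with M2N, TN1 with TN2 and WD mice, had means of 4254.7, 3263.0 and 4152.4 CPM for smooth muscle, 3059.3, 3411.0 and 3315.4 CPM for spermatogonia and primitive germ cells, 3845.1, 4113.4 and 5006.6 CPM for miR-202, and 41.9, 49.3 and 45.5 CPM for skeletal muscle. Base composition moved with the difference too. Across 32 tested members of distinct sequence, the log2 ratio of M1N and M2N to TN1 and TN2 had a Pearson correlation of 0.398 with GC content, and across 252 other mature miRNAs of 0.266. The log2 ratio of WD to SD means correlated with GC content at -0.463 over those members and at -0.247 over the others. The miRNAs in each correlation were measured in the same mice, and the part of cell makeup or base composition in the results was not tested.

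Since the members that were low in M1N and M2N were mostly 5p arms, the shares of the arms were compared directly. Both rest on the same counts, so a low 5p share in these 2 mice in part repeats that observation. The 5p share, the percent of both arms' counts that came from the 5p arm, does not depend on how mice are scaled. It was lower in M1N and M2N than in all other 6 mice for 7 of 15 hairpins (miR-878, miR-743a, miR-883a, miR-741, miR-742, miR-871 and miR-471), against 18.5% of 162 hairpins with both arms in the table, and higher for 0, against 6.79%. Between the diets, the mean 5p share was higher in WD mice for 9 of 15 hairpins, against 54.9% of the 162. It was higher than that of M1N and M2N for 10, against 49.4%, and than that of TN1 and TN2 for 4, against 55.6%. The differences for miR-741, miR-743a, miR-742 and miR-471 were above 0 against all SD mice and below 0 against the TN pair, at -0.399, -0.582, -1.59 and -0.441 percentage points. The mean share of miR-465 turned the same way, at 28.5% in WD mice, 25.2% in SD mice and 31.5% in the TN pair. So did that of miR-201, at 94.0%, 93.7% and 96.1%. The diets did not overlap for 1 (miR-871), against 3.7% of the 162 for WD higher and 1.23% for WD lower.

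For miR-871 the 5p share was 27.3% in M1N, with a 95% Wilson interval of 25.1% to 29.5%, then 38.0% in M2N (35.7% to 40.4%), 49.0% in TN1 (46.2% to 51.8%) and 47.3% in TN2 (44.3% to 50.2%). In WD mice it was 51.8% in M1W, 56.1% in M2W, 51.1% in M3W and 56.7% in M5W. All WD mice lay above all SD mice. The counting intervals of TN1 and TN2, however, each overlapped those of M1W (49.3% to 54.2%) and M3W (47.7% to 54.4%). The exact two-sided permutation test over the 70 assignments of mice gave p = 0.0286, the smallest it can give, and 0.429 after Benjamini-Hochberg adjustment over 15 hairpins. In CPM, miR-871-3p was read at 395.0, 319.0, 191.0 and 268.0 CPM in SD mice and miR-871-5p at 148.0, 195.0, 184.0 and 240.0 CPM, in the order M1N, M2N, TN1 and TN2.

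For miR-878 the 5p share was 0.512% in M1N and 0.954% in M2N, 1.97% in TN1 and 3.07% in TN2, and 3.86%, 2.23%, 2.73% and 3.24% in M1W, M2W, M3W and M5W. The Wilson intervals of M1N (0.389% to 0.674%) and M2N (0.763% to 1.19%) did not reach those of any other mouse. TN2 lay within the range of the WD mice, and the difference between the diets did not pass the test (exact permutation p = 0.114, adjusted 0.536). The shares of miR-741 were 8.14% and 8.28% in M1N and M2N and 12.4% to 15.5% in the other 6 mice. Those of miR-463, by contrast, stayed between 87.5% and 92.0% in all 8. Intervals and the limits of low counts given here cover counting error only, since reads made by PCR are not independent molecules.

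**Figure D4:**
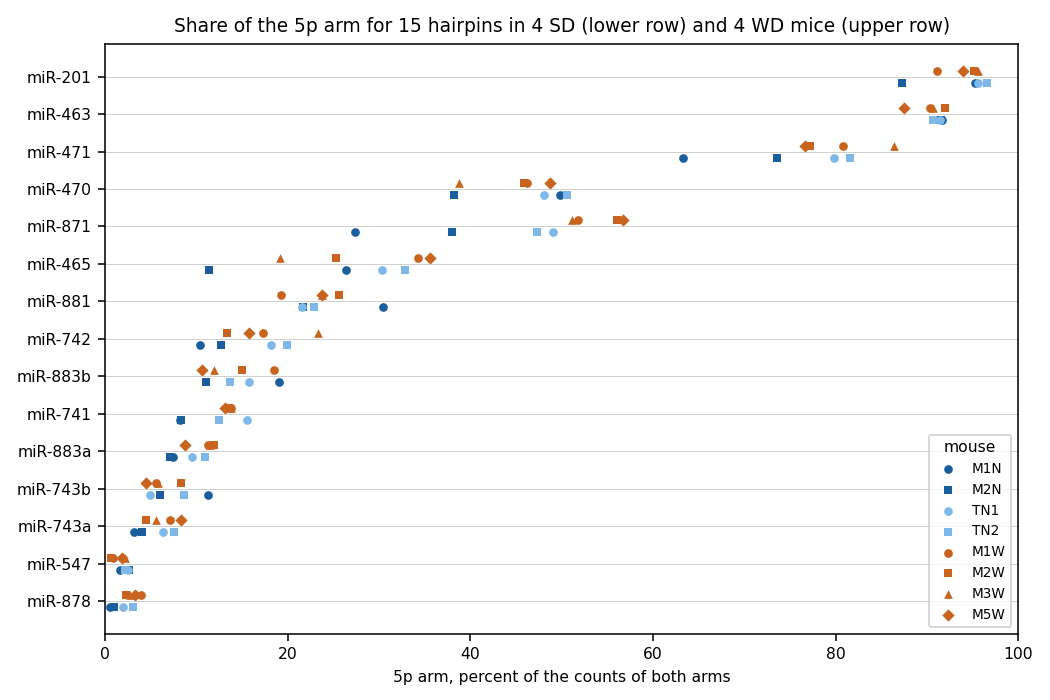
Percent of the counts of both arms that came from the 5p arm, for 15 hairpins, with SD mice in blue in the lower row and WD mice in orange in the upper row of each. For miR-871 the orange points (51.1% to 56.7%) lie to the right of the blue ones (27.3% to 49.0%), and for miR-741 and miR-878 the dark points of M1N and M2N lie to the left of all others.

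miR-465-3p showed how copies of an identical sequence entered the table. In every mouse the counts of miR-465b-3p were 1.99 to 2.01 times those of miR-465a-3p, and those of miR-465c-3p 1.96 to 2.0 times. Of its 5 precursors, 1 is Mir465, 2 are Mir465b and 2 are Mir465c, the same proportions. Since the names stand for an identical sequence, their sum is given here. Whether a read was divided over the 5 precursors or counted at each of them is not given in the sources used here. If it was counted at each, the sum is up to 5 times the level, and the 3p share of the miR-465 hairpins, their place in the order of levels and the members' combined share are too high. Ratios of the 3p level between mice do not depend on it. It was 634.0, 1801.8, 632.0 and 541.0 CPM in M1N, M2N, TN1 and TN2, and 527.0, 1071.8, 659.0 and 513.0 CPM in M1W, M2W, M3W and M5W.

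M2N stood apart, 1.68 times as high as the next mouse, M2W, while the other 6 lay between 513.0 and 659.0 CPM. The 5p arms of the same precursors, summed, were 227.0 CPM in M1N, 232.0 CPM in M2N and 362.0 CPM in M2W, so the high 3p level of M2N had no counterpart there. The log2 fold change of the sum between the diets was -0.38 ± 0.34 (adjusted p = 0.584). For miR-465b-3p alone it was -0.38 with all mice and 0.20 without M2N.

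The members together made up 8.96% to 9.81% of the mature miRNA counts of SD mice and 8.22% to 8.93% of those of WD mice. The means were 9.28% ± 0.39 and 8.62% ± 0.298 (SD, n = 4 each), a difference of -0.665 percentage points, and the groups did not overlap. The difference was -0.959 points from M1N and M2N and -0.372 points from TN1 and TN2. The lowest SD mouse, TN2, had a Wilson interval of 8.83% to 9.09% and the highest WD mouse, M2W, one of 8.83% to 9.03%, so those 2 mice did not differ beyond counting error. M1N and M2N had the highest shares, 9.34% and 9.81%. As a share of all small RNAs the members stood at 0.817% to 1.04% in SD mice and 0.822% to 1.13% in WD mice, which overlapped. A combined level over chosen members was not tested.

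**Figure D5:**
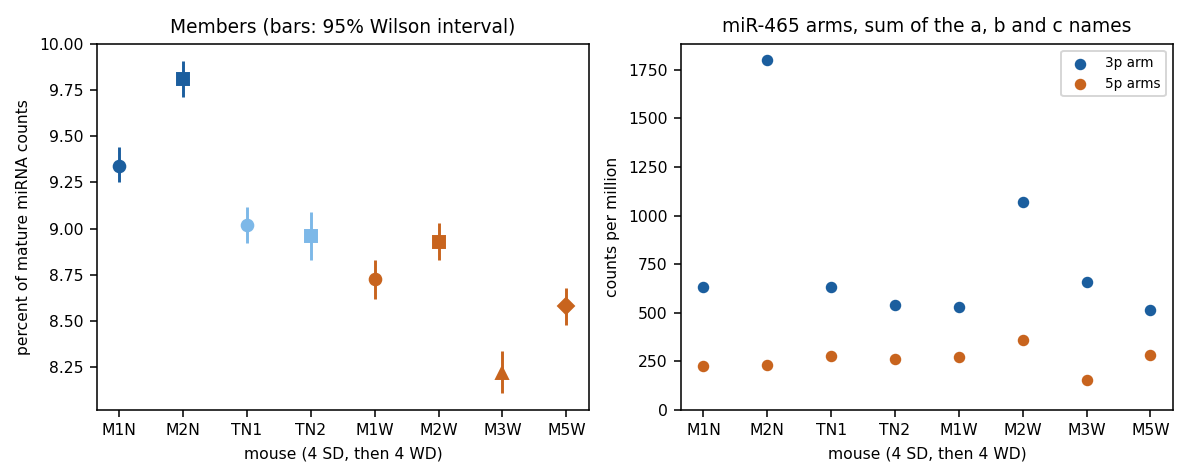
Left, the members' percent of mature miRNA counts in each mouse with 95% Wilson intervals (the axis does not start at 0), from 8.22% in M3W to 9.81% in M2N. Right, the summed CPM of the miR-465 3p names (blue) and 5p names (orange), where the 3p level of M2N stands at 1801.8 CPM and its 5p level at 232.0 CPM.

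Other miRNAs known from the germ line or linked to the X chromosome are given by their lists. Of 32 tested miRNAs with another X-linked precursor, 5 met the criteria as higher and 1 as lower, against 7.89% and 7.18% of the miRNA class, with a median log2 fold change of 0.13. The most abundant of these, miR-19b-3p, also has a precursor on another chromosome, and was 5267.3 ± 593.0 CPM in SD mice and 6805.9 ± 654.0 CPM in WD mice (adjusted p = 0.337). Of 8 tested miRNAs of meiotic and later germ cells (the miR-34b, miR-34c and miR-449 genes), 0 were higher and 1 was lower, with a median of -0.03. Of 15 tested miRNAs of spermatogonia and primitive germ cells, 2 were higher and 4 were lower (median -0.04), against the same background shares. Its most abundant miRNAs, miR-19a-3p and miR-92a-3p, had log2 fold changes of 0.62 and -0.47, the latter under the 1.5-fold limit. This list shares miR-92a, miR-221 and miR-222 with the X-linked one, and miR-223 is in both the X-linked and the leukocyte list.

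Among lists of other cells, 1 of 4 tested leukocyte miRNAs was higher and 1 lower (median -0.12), and 0 met the criteria among miR-202 of the gonad (2 tested), smooth muscle (3), endothelium (2), erythrocytes (2) and skeletal muscle (2). Their medians were 0.0, 0.41, -0.06, -0.1 and 0.01. The miR-202 list summed to 3609.1 to 4193.1 CPM in SD mice and 4186.9 to 7021.2 CPM in WD mice, and the smooth muscle list to 3075.0 to 4343.1 and 3251.1 to 5961.3 CPM. The miR-122 arms of the liver list did not pass the filter.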

How the data were processed

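Total RNA of whole testis from 4 SD and 4 WD mice was extracted with Trizol and made into small RNA libraries for SOLiD sequencing. The authors cut reads at the adaptor and placed them on mm9 by Bowtie, with mismatches allowed, and took names from miRBase, Rfam and a database of other ncRNAs. They deposited raw read counts per small RNA, 1 column a mouse. The Bowtie version, and how reads with several matches were counted, are not given in the sources used here. Groups were taken from the sample titles. Nothing but the titles says that the 8 samples are separate animals, and p-values measure the spread between these samples.

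From the deposited counts, edgeR 4.0.16 (R 4.3.3) was run on the whole table: filterByExpr (minimum count 10, total 15), TMM factors, and the quasi-likelihood test of WD against SD with no covariates, with Benjamini-Hochberg adjustment over all 16955 small RNAs tested. CPM values use the TMM-scaled totals. Fold changes are log2, WD minus SD. The test was tried on simulated data first. Arm shares were compared by exact two-sided permutation (scipy 1.17.1) for hairpins with at least 10 counts of both arms in every mouse, with the miR-465 copies pooled after their identical 3p arms had been seen. Intervals are 95% Wilson intervals, and the limit of a count of 0 is 3 counts. Mature sequences are from RefSeq, matched for all 35 members, and precursors from the mm9 annotation (GENCODE).

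Values, by mouse or as diet means or fold changes, were given for the 8 members with the highest mean CPM, members meeting the study's miRNA criteria, tested members whose diets did not overlap, the other arm of each, and up to 2 members with the same seed. miR-871, miR-881 and miR-201 were described outside this rule where their values stood out, chosen after these were seen. Members, lists and comparisons were chosen with earlier results of these data known. The lists were markers of meiotic and later germ cells, spermatogonia, gonad, smooth muscle, endothelium, leukocytes, erythrocytes, skeletal muscle and liver, and other X-linked miRNAs. Alternatives tried were DESeq2 1.42.0, limma-voom (limma 3.58.1), other scalings and filters, each pair of SD mice, a replicate block and leaving out each mouse.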

Additional observations from a re-analysis of the deposited data

Results flagged for a closer look

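In 7 of 100 groups of 4 mice examined (a member's CPM, a hairpin's 5p share, or the members' share of mature miRNA counts, within a diet), the gap between 1 mouse and its nearest neighbour passed Dixon's critical value, where chance, at 1 in 20, gives about 5. The groups are not independent, since members share mice.

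All 7 were in SD mice, and all concerned M1N or M2N. In M2N, miR-465a-3p was read at 360.0 CPM against 109.0 to 127.0 CPM in the other SD mice, miR-465b-3p at 721.0 CPM against 218.0 to 254.0 CPM, and miR-465c-3p at 721.0 CPM against 214.0 to 253.0 CPM. These 3 names hold the same sequence and count as 1 observation. The 5p share of miR-201 in M2N was 87.3%, against 95.3% to 96.6% in the other SD mice.

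In M1N, miR-883b-3p was read at 43.9 CPM, against 84.4 to 88.0 CPM in the other SD mice. miR-881-5p stood at 40.8 CPM there, against 47.7 to 48.1 CPM, and the 5p share of miR-881 at 30.4%, against 21.5% to 22.9%. The causes were not tested.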

How the results depend on the processing

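The miRNA criteria were met by 4 members in the main fit, and by 2 when at least 10 counts were required in every mouse. The number was 13 with no fold limit, 14 with M1N and M2N as the only SD mice, and 0 with TN1 and TN2 as the only ones. It was 2 to 9 when 1 mouse was left out. These were not always the same members, and the share of the miRNA class meeting the criteria in the same fits is not given. Members with an adjusted p under 0.05 numbered 11 against M1N and M2N alone and 0 in all fits that left out 1 mouse, and 0 with the adjustment over the miRNA class alone. Members whose diets did not overlap fell from 4 to 1 with scaling to mature miRNAs alone. The members' share, as a percent of all small RNAs, differed by -0.0221 percentage points. Hairpins whose 5p share did not overlap between the diets numbered 7 against M1N and M2N alone, and 1 to 2 when 1 mouse was left out (2 without TN1, TN2 or M5W). With fewer SD mice full separation is easier to reach, and the share over all hairpins is not given, so these counts are not alike. The causes of these changes were not tested. The median log2 fold change of the members ran from 0.08 to 0.24 when 1 mouse was left out, within the spread between mice.

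The numbers M1 and M2 occur in both diets but, by the titles, name different animals. The deviations of M1N and M1W from their group means correlated at -0.0539 over mature miRNAs and those of M2N and M2W at 0.255, so the numbers were not taken to pair the mice. A paired fit of these 4 mice with the number as a replicate block gave 13 members meeting the criteria and 6 with an adjusted p under 0.05, and the fit of the same mice without the block, added after seeing the data, gave 16 and 6. Summing the 3 names of miR-465-3p, also added then, left 4 meeting the criteria. The shares of the miRNA class called in these fits are not given. By edgeR with all WD mice against M1N and M2N, 19 of 35 members had an unadjusted p of at most 0.05. So did 146 of 398 mature miRNAs.

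For single members and hairpins, 324 values under alternatives were computed, of which 293 kept their side of the criteria or test, 14 lost it, 17 gained it and 0 called values changed direction. The hairpin shares among them were not called with all mice, and with fewer mice the exact test cannot give a p under 0.05. They therefore kept their side by design. Of the 14 losses, 10 were those of miR-465a-5p. Among these 324 values, those not called changed sign in 12 cases, 8 of members and 4 of hairpin shares. The shares of miR-465 and miR-201 were not among them. With 4 mice a diet and SD mice that differ by pair, small differences cannot be detected, and members with few counts such as miR-547-5p carry large errors. Which pair of SD mice matches the WD mice in handling is not given in the sources used here.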
